A study of Mus musculus with 26 samples.

Results

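The effect of partial hepatectomy on mouse liver RNA was set against the effect of a cholic acid diet, gene by gene, in 12 of the 26 samples of the series. The first effect compared C3H/HeN mice 48 h after removal of part of the liver with sham mice labelled 0 h, all 8 to 10 weeks old and fed freely. The second compared C57BL/6J mice on a cholic acid diet with mice on chow, all 10 to 12 weeks old and fasted for 8 to 10 h before their livers were taken. Both diet groups carry the floxed alleles fl/fl Fxr fl/fl Shp, in which the bile acid receptor and its partner repressor are flanked for deletion, and the labels used here name no Cre recombinase for them. Each group held 3 whole liver samples. Strain, age, feeding and genotype differ between the experiments and, by the labels, not within them, so they cannot be told apart from the treatment in any difference between the 2 effects. Within the hepatectomy experiment the labelled time also differs, at 0 h in sham and 48 h after hepatectomy. Time after surgery therefore cannot be told apart from removal of liver in the hepatectomy effect. The labels used here give neither the dose and length of the diet nor the sex of the mice, and all 12 libraries held 830 to 3195 reads of the Y-linked gene Ddx3y and at most 3 of Xist.

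The liver replaces lost mass by driving resting hepatocytes through the cell cycle: cyclin D1 opens G1, E2F factors switch on the genes that copy DNA, and FoxM1 and B-Myb then switch on the genes that divide the cell. Bile acids bind the receptor FXR, which induces the repressor SHP, and together with signals from the gut they shut off the enzymes that make bile acids from cholesterol. Bile acids that build up can also act through PXR, which with the related receptor CAR induces enzymes and export pumps for foreign compounds.

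Gene counts per library ranged from 31291848 to 35481559 in the hepatectomy experiment and from 13949059 to 19496566 in the diet experiment, and every cholic acid library was deeper than every chow library. Chow replicate 3 stood apart: 1973 genes lay more than 2-fold from the mean of the other chow libraries, against 90 to 789 in the other 11 libraries. Results that rest on it are given with and without it. Where a call printed with its value was lost without a single library, that library is named by its group and replicate number. The same holds for most larger list counts that moved by over 1.5 times. Small list counts also moved, some of them to 0, and not every such move is named. Ldah, a lipid droplet hydrolase gene, split the diet libraries across their groups, with 0 reads in chow replicate 3 and 4 and 1 in cholic acid replicates 1 and 2 against 574 to 788 in the other diet libraries. Whether the diet libraries share 1 genotype beyond their labels was not tested. In whole liver, fewer cells of a type and less RNA per cell cannot be told apart. The labels do not say that the 3 samples of a group are separate animals, so the tests measure the spread between these samples.

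Each effect is a log2 ratio of treated to control, and the difference is the hepatectomy effect minus the cholic acid effect. All were tested with edgeR's quasi-likelihood test at a Benjamini-Hochberg adjusted p under 0.05, values after ± are standard errors, and levels are CPM, counts scaled to library size with TMM factors. After hepatectomy 4225 of 13753 genes changed (30.7%), with 2256 raised (16.4%) and 1969 lowered (14.3%). On cholic acid 600 of 12577 changed (4.77%), with 285 raised (2.27%) and 315 lowered (2.5%). The 2 effects differed at 1820 of 13985 genes (13%), higher after hepatectomy at 1120 (8.01%) and lower at 700 (5.01%). These shares are the background for all counts of listed genes given below. Treated and control libraries did not overlap at 47% of genes after hepatectomy and 31% on cholic acid, and 30.5% and 4.77% were both called and separate. The replicate block named below is the replicate number of the diet libraries as a term in the fit, for the diet experiment alone. Replicates varied more in the diet experiment, with a biological coefficient of variation of 26.4% against 15.6%.

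Among the 12421 genes tested in all 3 fits, 36.3% were called in at least 1 of them. Of these genes 108 were raised in both experiments (0.869% of the 12421), which is 5.34% of the genes raised by hepatectomy and 39% of those raised by cholic acid. A further 134 were lowered in both (1.08%), which is 7.1% of the genes lowered by hepatectomy and 43.2% of those lowered by cholic acid. Of the 108 the rise was larger after hepatectomy at 32 and on cholic acid at 9, and the fall was larger on cholic acid at 46 of the 134. Another 51 genes went in opposite directions (0.411%), 17 of them up after hepatectomy and 34 down. A gene was counted as particular to 1 treatment when it was called there and not in the other and the difference was called in the same direction. By that rule 1045 genes were particular to hepatectomy (658 raised, 5.3%, and 387 lowered, 3.12%) and 233 to cholic acid (102 raised, 0.821%, and 131 lowered, 1.05%). For 2571 genes called after hepatectomy alone no difference was called, so it is not shown that cholic acid moved them less. Across the 12421 genes the effects had a Pearson r of 0.31 and a Spearman rho of 0.20, a description over genes of the same 12 libraries. Without chow replicate 3 the genes raised in both numbered 255 and those lowered in both 221, and 107 of the 108 and all 134 were among them.

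**Figure D1:**
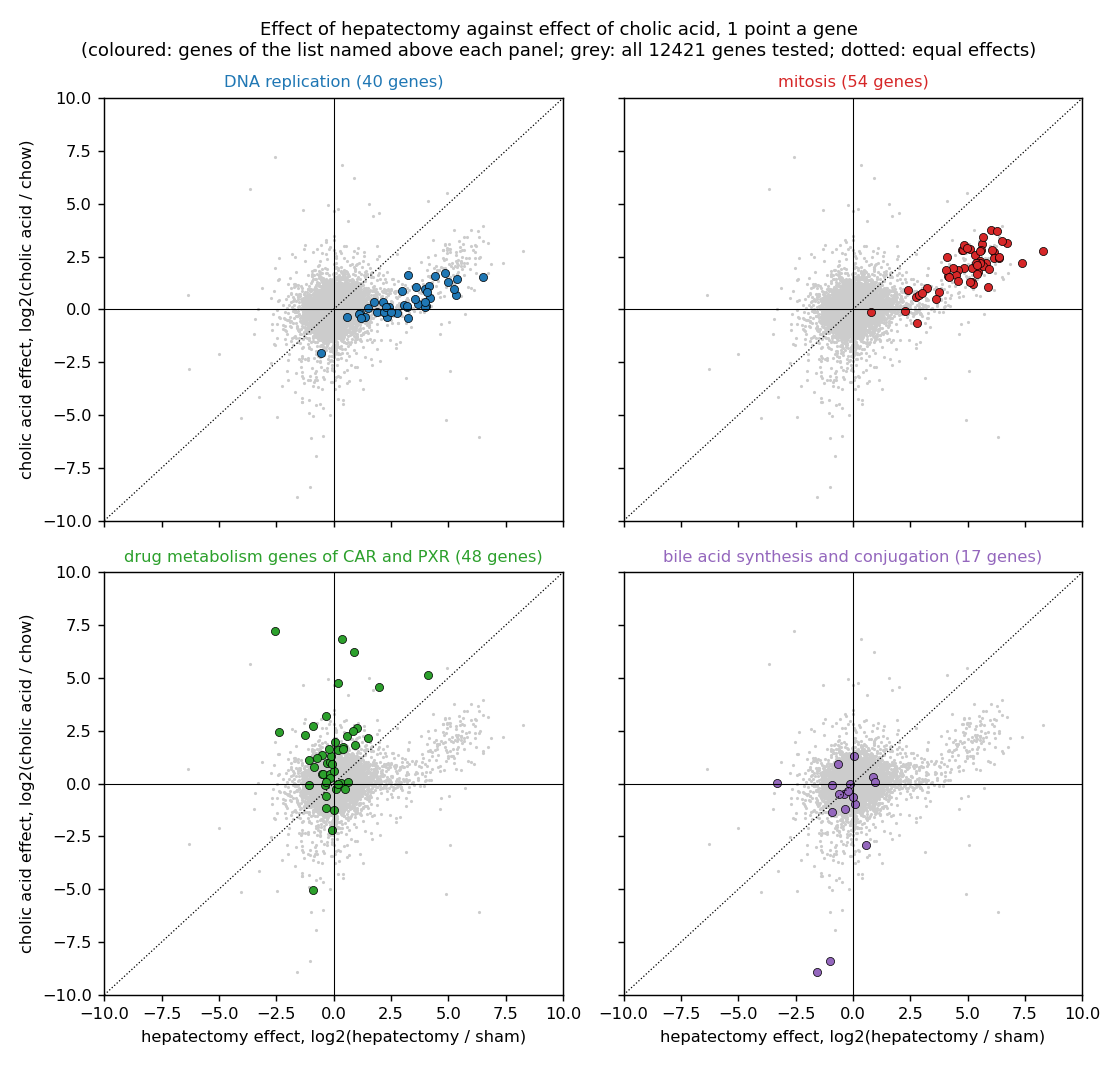
Each point is a gene, with its hepatectomy effect on the x axis and its cholic acid effect on the y axis (log2 ratios, 3 libraries a group). The 4 panels colour the genes of DNA replication, mitosis, drug metabolism and bile acid synthesis over all genes in grey, and the dotted line marks equal effects. DNA replication genes spread along the x axis close to 0 on the y axis, and mitosis genes lie up and to the right. Cyp7a1 and Cyp8b1 sit at the bottom, at -8.42 and -8.90.

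Genes of the entry into the cell cycle were partly shared. Ccnd1, which encodes the G1 cyclin D1, stood at 56.4, 96.8 and 94.7 CPM in the sham libraries and at 250.0, 264.6 and 92.9 after hepatectomy. Chow livers had 23.5, 23.4 and 26.5 CPM and cholic acid livers 93.6, 121.8 and 137.6. Hepatectomy replicate 3 lay within the sham range, and the diet groups did not overlap. Ccnd1 rose by 1.29 ± 0.38 after hepatectomy (adjusted p 0.0344) and by 2.27 ± 0.19 on cholic acid (adjusted p 0.0019). The difference of -0.97 ± 0.46 was not called (adjusted p 0.191, 95% interval -1.97 to 0.03). E2f3, an activating E2F factor, also rose in both, by 0.84 ± 0.18 and 1.03 ± 0.22 (adjusted p 0.00998 and 0.036), with a difference of -0.18 ± 0.29 (95% interval -0.81 to 0.45). The rise of Ccnd1 after hepatectomy was not called without sham 1, 2 or 3 or hepatectomy 1 or 2 (adjusted p 0.0763 to 0.103). The rise of E2f3 on cholic acid was not called without chow 2 or cholic acid 1, 2 or 3 (adjusted p 0.0948 to 0.135). Nor was the rise of E2f3 called with the replicate number of the diet libraries as a block (adjusted p 0.0709).

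E2f1, the E2F factor that drives entry into S phase, stood at 1.90, 1.37 and 2.17 CPM in sham and 35.8, 45.4 and 25.2 after hepatectomy, and at 3.94, 2.73 and 3.07 with chow and 5.37, 5.94 and 4.36 with cholic acid. Groups did not overlap in either experiment, but the distances differed. It rose by 4.29 ± 0.26 after hepatectomy (adjusted p 1.99e-05), its cholic acid estimate of 0.69 ± 0.27 was not called (adjusted p 0.173), and the difference was 3.61 ± 0.36 (adjusted p 0.000121). E2f8, an atypical E2F that represses E2F targets, rose by 2.44 ± 0.19 after hepatectomy, and its cholic acid estimate was -1.47 ± 0.50 (adjusted p 0.128, and -1.83 with adjusted p 0.0273 without chow replicate 3). The difference was 3.92 ± 0.56 (adjusted p 0.00116). Ccne1, a cyclin of the G1/S transition, rose by 2.64 ± 0.30 after hepatectomy against an uncalled -0.23 ± 0.42 on cholic acid (difference adjusted p 0.00416). Of 43 listed cell cycle regulators 41 passed the filter on low counts in the hepatectomy experiment, where 28 rose and 3 fell, and 39 passed in the diet experiment, where 4 rose (Ccnd1, E2f2, E2f3 and Foxm1, and 2 with the replicate block). The median effects of the list were 0.93 and 0.14, against 0.01 over all genes in each experiment. The 4 regulators raised on cholic acid numbered 1 without chow 2 or cholic acid 1, 2 or 3 and 2 without chow 1.

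DNA replication genes rose after hepatectomy, and most differed from their cholic acid effect. All 45 listed genes passed the filter in the hepatectomy experiment and 44 rose, with a median effect of 3.25. In the diet experiment 40 passed, 2 rose (the helicase subunit Mcm6 and Dbf4, which activates the kinase that fires replication origins), 1 fell (Mcm10) and the median was 0.18. The difference was higher after hepatectomy at 42 of 45, with a median of 2.94 against 0.04 over all genes. Mcm5, another subunit of the replicative helicase, stood at 3.38, 2.10 and 1.23 CPM in sham and at 94.5, 124.7 and 62.2 after hepatectomy. Its levels were 0.892, 1.16 and 2.19 CPM with chow and 3.19, 4.11 and 4.36 with cholic acid. Groups were separate in both experiments. The effects were 5.39 ± 0.38 (adjusted p 4.02e-05) and 1.46 ± 0.39 (adjusted p 0.0715), with a difference of 3.93 ± 0.57 (adjusted p 0.00117). The cholic acid effect of Mcm5 was called without chow replicate 3 (1.91, adjusted p 0.0142). The rise of Mcm6 on cholic acid was not called without chow 1 or 2 or cholic acid 1, 2 or 3 (adjusted p 0.0642 to 0.101). The 2 replication genes raised on cholic acid became 1 without chow 1 or 2 or cholic acid 1 or 3 and 0 without cholic acid 2.

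Rrm2, the regulated subunit of the enzyme that makes deoxynucleotides, stood at 3.02, 4.90 and 4.20 CPM in sham and 116.3, 176.1 and 166.2 after hepatectomy. With chow it stood at 11.1, 13.7 and 5.55 CPM and with cholic acid at 12.4, 20.3 and 26.2. The hepatectomy libraries lay far above sham while the diet groups overlapped, and the difference in effects was 4.28 ± 0.48 (adjusted p 0.000245). Mcm10, a replication initiation factor, followed neither pattern, with -0.53 ± 0.37 after hepatectomy (adjusted p 0.32) and a fall of 2.06 ± 0.21 on cholic acid (adjusted p 0.00297). The summed level of the list was 406.6 to 440.1 CPM in sham and 1499 to 2376 after hepatectomy, 375.0 to 442.8 in chow livers and 337.5 to 374.1 in cholic acid livers. Without chow replicate 3, 7 of 41 replication genes rose on cholic acid, the median was 0.23, and the difference was called at 37 of 45. The hepatectomy effect of Mcm10 was called without hepatectomy 1 (adjusted p 0.0329).

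Mitosis genes rose after hepatectomy, and some of them also rose on cholic acid. All 55 listed genes rose after hepatectomy, with a median of 5.21. On cholic acid 18 of 54 rose, with a median of 2.07, and those 18 were among the 108 genes raised in both. The summed level of the list was 84.0 to 99.2 CPM in sham and 1265 to 1848 after hepatectomy, 127.1 to 203.0 in chow livers and 268.9 to 516.0 in cholic acid livers, and groups did not overlap in either experiment. The difference was higher after hepatectomy at 42 of 55 genes. Cdc20, which activates the complex that starts anaphase, stood at 0.514, 0.583 and 0.366 CPM in sham and 40.6, 44.6 and 72.6 after hepatectomy. With chow it stood at 0.966, 1.02 and 3.07 CPM, highest in chow replicate 3, and with cholic acid at 7.90, 22.9 and 13.6. No cholic acid library came down to the chow range. Cdc20 rose by 6.73 ± 0.31 and 3.13 ± 0.54 (adjusted p 6.75e-06 and 0.0172), with a difference of 3.60 ± 0.70 (adjusted p 0.00592). Ccnb1, the mitotic cyclin B1, rose by 6.01 ± 0.32 and 3.75 ± 0.63, and the difference of 2.26 ± 0.81 was not called (adjusted p 0.0856, 95% interval 0.50 to 4.01). That replication and mitosis lists differ from each other in their share between the treatments was not tested. The rise of Cdc20 on cholic acid was not called without chow 1 or 2 or cholic acid 2 or 3 (adjusted p 0.0577 to 0.0762). The rise of Ccnb1 on cholic acid was not called without chow 2 or cholic acid 2 or 3 (adjusted p 0.0537 to 0.076). The 18 mitosis genes raised on cholic acid became 2 without chow 2, 3 without cholic acid 2, 4 without cholic acid 3, 6 without chow 1 and 47 without chow 3.

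Chow replicate 3 bears on the mitosis genes. Mki67, the proliferation antigen Ki-67, stood at 1.56, 1.43 and 5.77 CPM in the chow livers and 9.37, 18.1 and 13.1 in the cholic acid livers, without overlap, and its cholic acid estimate of 2.22 ± 0.53 missed the threshold (adjusted p 0.0528). Without chow replicate 3 that estimate was 3.17 (adjusted p 0.00406). In the same setting 47 of 55 mitosis genes rose on cholic acid with a median of 3.20, and the difference from hepatectomy was called at 24 of 55. Foxm1, the transcription factor of the mitotic programme, rose by 5.02 ± 0.23 and 2.85 ± 0.61, with a difference of 2.16 ± 0.64 (adjusted p 0.0423) that was 0.97 without chow replicate 3 (adjusted p 0.354). Hmmr, which encodes a spindle protein, likewise went from 2.59 ± 0.68 (adjusted p 0.0269) to 1.47 (adjusted p 0.22), and Ccna2, cyclin A2, from 3.27 ± 0.81 to 2.13 (adjusted p 0.105), its cholic acid effect being called without that library (3.41, adjusted p 0.00953). Deviations of same-numbered diet libraries had weak positive correlations (0.103 to 0.155). With the replicate number as a block the rise of Mki67 was called (adjusted p 0.0473) while the rise of Foxm1 was not (adjusted p 0.0561), nor its difference (adjusted p 0.0509). The difference for Ccnb1 was called with the block (adjusted p 0.0481) and was 1.35 without chow replicate 3 (adjusted p 0.374), where its cholic acid effect was 4.65. The rise of Foxm1 on cholic acid was not called without chow 1 or 2 or cholic acid 1, 2 or 3 (adjusted p 0.0881 to 0.116). The Foxm1 difference was not called without sham 1, 2 or 3 or hepatectomy 2 or 3 or chow 3 or cholic acid 1 or 3 (adjusted p 0.0577 to 0.354). The Hmmr difference was not called without sham 2 or 3 or hepatectomy 3 or chow 3 (adjusted p 0.0508 to 0.22). The Ccna2 difference was not called without sham 2 or 3 or chow 3 (adjusted p 0.0506 to 0.105). The Ccnb1 difference was called without chow 1 or cholic acid 2 (adjusted p 0.0375 to 0.0457).

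**Figure D2:**
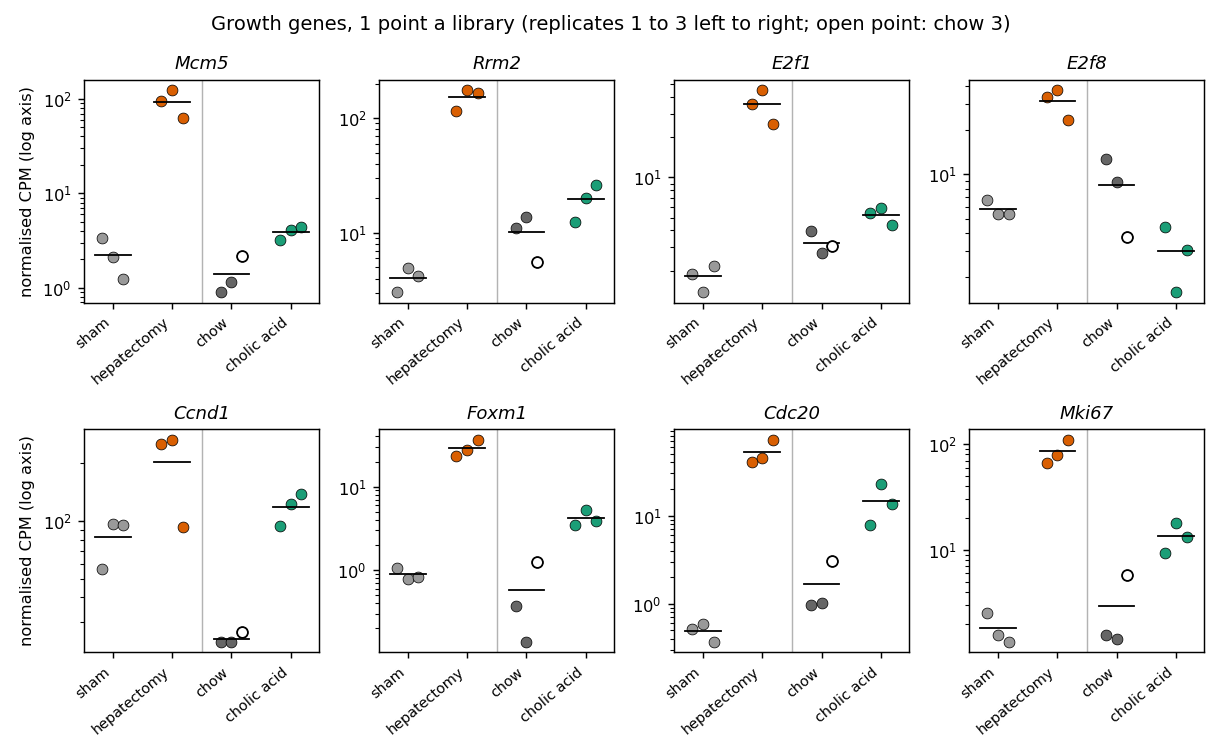
Normalised CPM of 8 growth genes on log axes, with 1 point a library, replicates from left to right within a group, a bar at the group mean and an open point for chow replicate 3. Mcm5, Rrm2, E2f1 and E2f8 are highest after hepatectomy with the diet groups close together or, for E2f8, lower with cholic acid. Ccnd1, Foxm1, Cdc20 and Mki67 are higher in the cholic acid livers than in every chow liver.

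Promoters of these genes are shown because the replication and mitosis genes gave different values on cholic acid. RefSeq promoters of 250 bases before to 50 after the start (build GRCm38.p6) were found for 35 of the 45 replication genes and 46 of the 55 mitosis genes. An E2F motif (TTTCCCGC or TTTGGCGC, either strand) was present for 10 replication genes (28.6%) and 3 mitosis genes (6.52%), against 1.8% of all 27025 genes with a promoter and 3.4% of the 9576 of them tested in all 3 fits. The CHR element TTTGAA, which a complex of the mitotic programme is known to bind, was present on either strand for 71.7% of mitosis genes and 17.1% of replication genes, against 20.2% of all and 14.6% of those tested. Of the genes raised in both experiments with a promoter, 9.64% had an E2F motif and 33.7% a CHR element, and of those raised particularly by hepatectomy 9.51% and 22.1%. The CCAAT box was present for 60% of replication genes, 73.9% of mitosis genes, 41.1% of all genes and 42.9% of those tested. The FXR inverted repeat, a pair of receptor half-sites facing each other, was present for 9 of all genes and for 0 of the 11 bile acid synthesis genes with a promoter. Such matches are letters in a window and not binding. The 4 genes below were chosen after the motifs were found. Each line gives the 180 bases before the start, with the E2F motif in capitals for Mcm5 (chr8:75109329-75109508, plus strand) and Pola1 (chrX:93632156-93632335, minus strand) and the CHR element in capitals for Cdc20 (chr4:118437344-118437523, minus strand) and Espl1 (chr15:102296113-102296292, plus strand).
Mcm5: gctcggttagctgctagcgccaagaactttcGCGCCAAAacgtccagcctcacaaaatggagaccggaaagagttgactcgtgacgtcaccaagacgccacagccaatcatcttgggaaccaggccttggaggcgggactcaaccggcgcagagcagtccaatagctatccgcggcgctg
Pola1: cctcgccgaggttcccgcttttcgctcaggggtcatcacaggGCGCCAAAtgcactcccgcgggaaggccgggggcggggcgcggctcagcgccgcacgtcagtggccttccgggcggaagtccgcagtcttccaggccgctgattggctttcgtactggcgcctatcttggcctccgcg
Cdc20: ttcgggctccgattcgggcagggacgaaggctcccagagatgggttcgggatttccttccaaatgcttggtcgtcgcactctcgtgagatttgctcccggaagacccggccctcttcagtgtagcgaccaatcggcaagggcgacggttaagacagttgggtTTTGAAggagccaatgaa
Espl1: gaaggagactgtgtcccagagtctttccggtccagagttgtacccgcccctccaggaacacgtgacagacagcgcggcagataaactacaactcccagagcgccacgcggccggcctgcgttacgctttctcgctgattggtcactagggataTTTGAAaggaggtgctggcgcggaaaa
The E2F motif begins 149 bases before the start of Mcm5 and 138 before that of Pola1, and the CHR element 18 bases before the start of Cdc20 and 27 before that of Espl1. Pola1, the catalytic subunit of the polymerase that primes DNA synthesis, rose by 2.40 ± 0.16 after hepatectomy (adjusted p 2.94e-05) against an uncalled 0.12 ± 0.36 on cholic acid (adjusted p 0.874). Espl1, the separase that parts sister chromatids, rose by 4.78 ± 0.29 and 2.80 ± 0.53 (adjusted p 2.04e-05 and 0.0237). The rise of Espl1 on cholic acid was not called without chow 1 or 2 or cholic acid 2 or 3 (adjusted p 0.0751 to 0.101).

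Egfr, Inhbe and Inhbc fell on cholic acid, and their effects differed from those of hepatectomy. Egfr, the receptor of epidermal growth factor, stood at 957.2, 540.0 and 412.9 CPM with chow and 171.1, 95.7 and 136.2 with cholic acid, without overlap, and at 563.8, 894.8 and 879.6 in sham and 702.3, 436.8 and 403.3 after hepatectomy, with overlap. It fell by 2.24 ± 0.35 on cholic acid (adjusted p 0.013), its hepatectomy estimate was -0.60 ± 0.25 (adjusted p 0.103), and the difference was 1.64 ± 0.46 (adjusted p 0.0353). Inhbe, a liver-made activin subunit, stood at 29.9, 32.1 and 29.6 CPM in sham and 53.5, 31.6 and 53.8 after hepatectomy. Its levels were 61.8, 43.2 and 46.6 CPM with chow and 4.41, 3.30 and 5.89 with cholic acid. Hepatectomy replicate 2 lay within the sham range and the diet groups were far apart. Inhbe rose by 0.60 ± 0.19 after hepatectomy (adjusted p 0.0473), fell by 3.47 ± 0.26 on cholic acid (adjusted p 0.0019) and differed by 4.07 ± 0.34 (adjusted p 6.69e-05). The related subunit Inhbc fell by 1.41 ± 0.21 on cholic acid (adjusted p 0.0113, difference 1.80 ± 0.28, adjusted p 0.00162). The fall of Egfr on cholic acid was not called without cholic acid 2 or 3 (adjusted p 0.0578 to 0.0631). The Egfr difference was not called without sham 1, 2 or 3 or hepatectomy 1 or 2 or chow 1 or cholic acid 2 or 3 (adjusted p 0.0513 to 0.083). The rise of Inhbe after hepatectomy was not called without sham 1, 2 or 3 or hepatectomy 1 or 3 (adjusted p 0.102 to 0.14). The fall of Inhbc on cholic acid was not called without cholic acid 1 or 2 (adjusted p 0.0517 to 0.0541). A fall of Egfr after hepatectomy was called without sham 1 or hepatectomy 1 (adjusted p 0.0168 to 0.0452).

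Of the 50 listed growth ligands, receptors and early response genes, 3 of 47 rose and 9 fell after hepatectomy, and 4 of 46 fell on cholic acid (Egfr, Inhbc, Inhbe and Lifr). Over all genes 16.4% rose and 14.3% fell after hepatectomy, and 2.5% fell on cholic acid. The share of the list raised after hepatectomy was under that of all genes, and the share lowered was near it. Without chow replicate 3, 6 of 47 listed genes rose and 5 fell on cholic acid. There the difference was called lower at 14 genes against 1 with all libraries and 12 with the replicate block in the diet experiment. Myc, an early growth factor response gene, fell by 1.43 ± 0.31 after hepatectomy (adjusted p 0.0101), and its difference of -1.47 ± 0.65 was called only without chow replicate 3 (-2.14, adjusted p 0.028). Among p53 targets 13 of 26 rose and 3 fell after hepatectomy, and 1 of 25 rose on cholic acid (Sesn2). The rise of Sesn2 was not called without chow 1 or 2 or cholic acid 1, 2 or 3, or with the replicate block. The difference for p53 targets was called higher at 3 genes, and at 6 without chow replicate 3. Cdkn1a, the cell cycle inhibitor p21, rose by 3.10 ± 0.45 after hepatectomy (adjusted p 0.00178). Its diet libraries were scattered, at 59.1, 57.0 and 3.07 CPM with chow and 85.7, 22.3 and 157.8 with cholic acid. The 3 raised growth ligands and receptors after hepatectomy became 0 without sham 2 or 3. The 9 lowered there became 16 without hepatectomy 3. The 4 lowered on cholic acid became 1 without cholic acid 2 and 2 without cholic acid 3.

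The feedback repressor of bile acid synthesis rose in both livers. Nr0b2, which encodes SHP, stood at 4.85, 3.99 and 8.70 CPM in sham and 12.9, 26.04 and 30.9 after hepatectomy. It stood at 14.8, 17.2 and 18.7 CPM with chow and 91.6, 43.6 and 61.4 with cholic acid, and groups did not overlap in either experiment. It rose by 1.99 ± 0.38 and 1.96 ± 0.27 (adjusted p 0.00562 and 0.00982), and the difference of 0.04 ± 0.49 was not called (95% interval -1.03 to 1.11). Nr1h4, which encodes FXR, fell in both, by 0.54 ± 0.17 and 1.01 ± 0.19 (adjusted p 0.0472 and 0.0219). Nr1i2, which encodes PXR, fell by 0.73 ± 0.12 after hepatectomy and rose by 0.68 ± 0.15 on cholic acid (adjusted p 0.00363 and 0.0443), a difference of -1.40 ± 0.19 (adjusted p 0.000765). With the replicate block in the diet experiment the rise of Nr1i2 was not called (adjusted p 0.0852) and its difference was (adjusted p 0.001). Of 22 tested receptors and regulators 1 rose and 7 fell after hepatectomy, and 4 of 21 rose and 2 fell on cholic acid (2 rose with the replicate block). The shares over all genes were 16.4% and 14.3% after hepatectomy and 2.27% and 2.5% on cholic acid. The fall of Nr1h4 after hepatectomy was not called without sham 2 or 3 or hepatectomy 1, 2 or 3 (adjusted p 0.063 to 0.165). The fall of Nr1h4 on cholic acid was not called without chow 2 or cholic acid 1 or 3 (adjusted p 0.0889 to 0.0981). The rise of Nr1i2 on cholic acid was not called without chow 1 or 2 or cholic acid 1, 2 or 3 (adjusted p 0.0944 to 0.147). The 7 receptors and regulators lowered after hepatectomy became 4 without sham 3. The 4 raised on cholic acid became 1 without chow 1 or 2 or cholic acid 1, 2 or 3. The 2 lowered there became 0 without chow 2 or cholic acid 3 and 1 without chow 1 or cholic acid 1 or 2.

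The enzyme genes Cyp8b1 and Cyp7a1, which that feedback represses, fell steeply on cholic acid, and both effects differed from those of hepatectomy. Cyp8b1, the sterol 12-hydroxylase that directs synthesis toward cholic acid, stood at 449.1, 536.8 and 512.6 CPM in sham and 232.3, 165.2 and 100.8 after hepatectomy. It stood at 666.3, 723.0 and 1221 CPM with chow and 2.13, 1.62 and 1.68 with cholic acid, and neither pair of groups overlapped. It fell by 1.59 ± 0.26 after hepatectomy (adjusted p 0.00323) and by 8.90 ± 0.36 on cholic acid (adjusted p 6.25e-05), a difference of 7.32 ± 0.45 (adjusted p 1.43e-05). Cyp7a1, the rate-limiting enzyme of the main pathway, stood at 463.2, 909.5 and 833.9 CPM in sham and 575.6, 392.8 and 121.0 after hepatectomy, with overlap. Its levels were 112.1, 160.6 and 729.9 CPM with chow, highest in chow replicate 3, and 1.27, 0.918 and 0.719 with cholic acid, with none. The hepatectomy estimate of -1.02 ± 0.50 was not called (adjusted p 0.157). On cholic acid Cyp7a1 fell by 8.42 ± 0.89 (adjusted p 0.00316; the estimate was -7.13 without chow replicate 3), and the difference was 7.41 ± 1.06 (adjusted p 0.00116).

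Some other enzymes of the pathway differed between the treatments. Cyp7b1, of the alternative pathway, fell by 2.89 ± 0.31 on cholic acid (adjusted p 0.00353) against an uncalled 0.57 ± 0.32 after hepatectomy, a difference of 3.47 ± 0.50 (adjusted p 0.00116). Cyp27a1, which starts that pathway in mitochondria, fell by 0.93 ± 0.12 after hepatectomy (adjusted p 0.000881) against an uncalled -0.06 ± 0.21 on cholic acid, a difference of -0.87 ± 0.24 (adjusted p 0.035). Cyp46a1, a cholesterol 24-hydroxylase, stood at 324.5, 333.7 and 361.9 CPM in sham and 38.6, 25.1 and 38.3 after hepatectomy and at 0.657 to 1.95 in the 6 diet libraries, so its fall of 3.32 ± 0.18 started from a level that the diet experiment did not have. Of 17 tested genes of synthesis and conjugation, 2 rose and 8 fell after hepatectomy, and 6 fell on cholic acid. The shares over all genes were 16.4% raised and 14.3% lowered after hepatectomy and 2.5% lowered on cholic acid. The difference was called higher at 5 of the 17 and lower at 2, and at 10 it was not called. Cyp8b1, Scp2 and Slc27a2 were lowered in both. The list medians were -0.34 and -0.51. The Cyp27a1 difference was not called without sham 1, 2 or 3 or hepatectomy 2 or chow 1 or cholic acid 2 or 3 (adjusted p 0.0501 to 0.0852). The 8 synthesis genes lowered after hepatectomy became 5 without sham 2 or 3. A rise of Cyp7b1 after hepatectomy was called without hepatectomy 3 (adjusted p 0.0404).

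**Figure D3:**
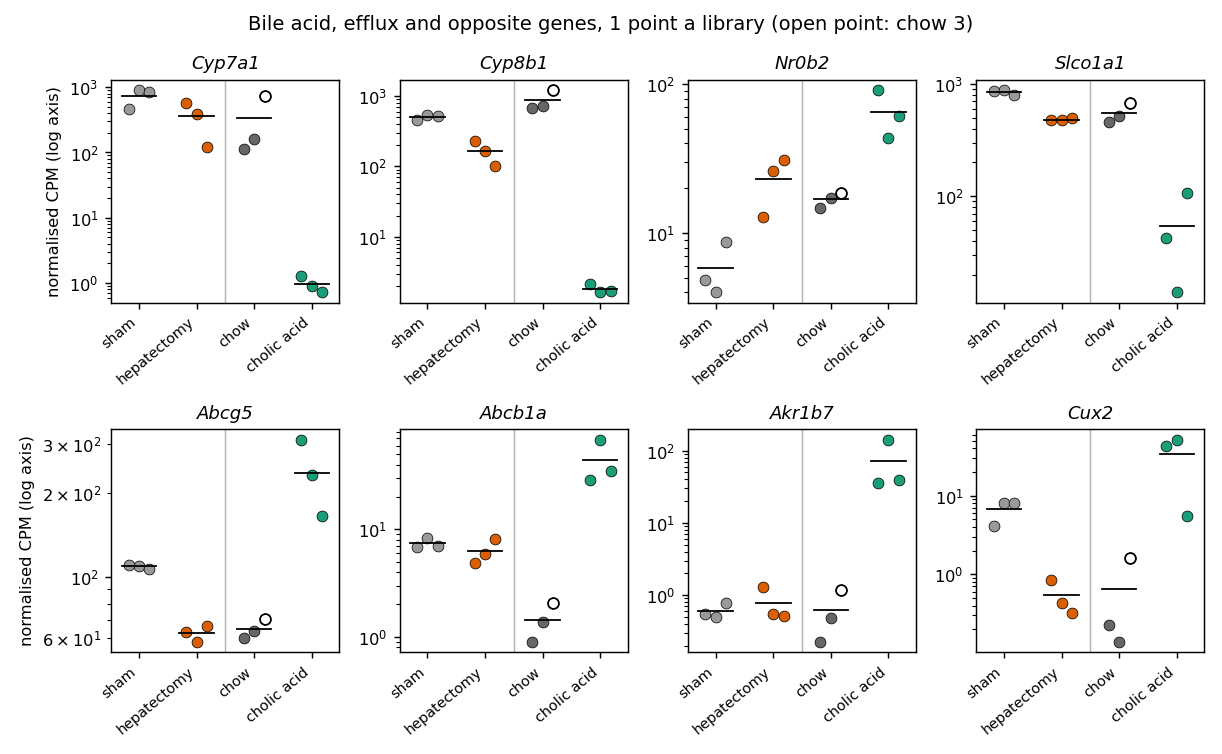
Normalised CPM of 8 genes on log axes, with 1 point a library, replicates from left to right within a group, a bar at the group mean and an open point for chow replicate 3. Cyp7a1 and Cyp8b1 lie at the bottom of their axes in all cholic acid livers, Nr0b2 is higher in both treated groups, Abcg5 and Cux2 move in opposite directions, and Abcb1a and Akr1b7 are highest in the cholic acid livers.

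Transporter genes mostly fell after hepatectomy where they were called, and mostly rose on cholic acid. Of 22 tested genes 1 rose and 9 fell after hepatectomy, and 8 of 22 rose and 1 fell on cholic acid (5 rose with the replicate block), with medians of -0.23 and 0.46. Among all genes 16.4% rose and 14.3% fell after hepatectomy, and 2.27% rose and 2.5% fell on cholic acid. Abcg5, a subunit of the pump that puts cholesterol into bile, stood at 110.3, 109.6 and 106.4 CPM in sham and 63.4, 58.2 and 66.6 after hepatectomy. It stood at 60.3, 64.0 and 70.2 CPM with chow and 310.3, 230.9 and 164.8 with cholic acid. The groups were separate in both experiments and moved in opposite directions. Abcg5 fell by 0.80 ± 0.08 (adjusted p 0.000293) and rose by 1.86 ± 0.24 (adjusted p 0.00808), a difference of -2.65 ± 0.26 (adjusted p 0.000117). Its partner Abcg8 fell by 0.65 ± 0.12 and rose by 1.82 ± 0.25. Slco1a4, an organic anion uptake carrier, was opposite too (-0.49 ± 0.14 and 2.65 ± 0.35, adjusted p 0.0297 and 0.00877). The fall of Slco1a4 after hepatectomy was not called without sham 1, 2 or 3 or hepatectomy 2 or 3 (adjusted p 0.0591 to 0.087). The 8 transporters raised on cholic acid became 4 without chow 1 or 2 or cholic acid 2 and 5 without cholic acid 1 or 3.

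The main bile acid carriers gave mixed results. Slc10a1, the sodium-dependent uptake carrier NTCP, fell by 1.20 ± 0.10 after hepatectomy (adjusted p 8.86e-05), its cholic acid estimate was -0.88 ± 0.22 (adjusted p 0.062), and the difference was -0.32 ± 0.25 (95% interval -0.86 to 0.22). Slco1a1, another uptake carrier, fell in both, by 0.83 ± 0.08 and 3.33 ± 0.64, and further on cholic acid (difference 2.51 ± 0.68, adjusted p 0.0303). Slc51b, a further carrier gene, rose in both, by 1.55 and 5.01 (adjusted p 0.0227 and 0.0202). Its rise was larger on cholic acid (difference -3.49, adjusted p 0.0465). Abcb11, the bile salt export pump, rose by 1.01 ± 0.22 on cholic acid (adjusted p 0.0418, and 0.0504 with the replicate block) against an uncalled 0.24 ± 0.19 after hepatectomy, and the difference of -0.76 ± 0.31 was not called (adjusted p 0.126). Abcc3, an exporter toward blood, fell by 0.89 ± 0.17 after hepatectomy and had a cholic acid estimate of 1.44 ± 0.36 (adjusted p 0.0589, and 1.12 with adjusted p 0.0187 without chow replicate 3), a difference of -2.33 ± 0.43 (adjusted p 0.00477). Abcb1a, a multidrug export pump, stood at 4.83 to 8.40 CPM across the sham and hepatectomy libraries. Its levels were 0.892, 1.37 and 2.04 CPM with chow and 29.0, 68.4 and 35.1 with cholic acid. All cholic acid libraries were above every other library, the rise was 4.94 ± 0.44 (adjusted p 0.00204), and the difference was -5.17 ± 0.50 (adjusted p 0.000108). The fall of Slco1a1 on cholic acid was not called without chow 1 or 2 or cholic acid 1 (adjusted p 0.0547 to 0.104). The Slco1a1 difference was not called without sham 1, 2 or 3 or hepatectomy 1, 2 or 3 or cholic acid 1 (adjusted p 0.0513 to 0.0719). The rise of Abcb11 on cholic acid was not called without chow 1 or 2 or cholic acid 1, 2 or 3 (adjusted p 0.0591 to 0.136). A rise of Abcb11 after hepatectomy was called without sham 1 (adjusted p 0.041). A fall of Slc10a1 on cholic acid was called without cholic acid 2 (adjusted p 0.047). The rise of Slc51b after hepatectomy was not called without sham 2 or 3 or hepatectomy 3 (adjusted p 0.0561 to 0.0869). Its rise on cholic acid was not called without chow 1 or 2 or cholic acid 2 or 3 (adjusted p 0.0551 to 0.0707). The Slc51b difference was not called without sham 1, 2 or 3 or hepatectomy 1 or 2. Nor was it called without chow 1 or 2 or cholic acid 2 or 3 (adjusted p 0.0633 to 0.107 over all of these).

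Many drug metabolism genes rose on cholic acid. Of 58 listed targets of CAR and PXR, 51 passed the filter in the hepatectomy experiment, where 7 rose and 15 fell with a median of -0.10. In the diet experiment 48 passed, 20 rose and 4 fell, with a median of 1.06. The 7 raised after hepatectomy were near the 16.4% raised over all genes, of which 14.3% fell. On cholic acid 2.27% of all genes rose and 2.5% fell. The difference was called lower at 22 of 51 and higher at 4. Gstm3, a glutathione transferase, stood at 67.8, 58.9 and 57.9 CPM in sham, 199.5, 60.3 and 83.3 after hepatectomy, 57.9, 67.5 and 98.8 with chow and 3008, 6760 and 6900 with cholic acid. The cholic acid libraries lay far above all others. Gstm3 rose by 6.22 ± 0.43 on cholic acid (adjusted p 0.0019) against an uncalled 0.90 ± 0.39 after hepatectomy, a difference of -5.32 ± 0.61 (adjusted p 0.000297). Akr1b7, an aldo-keto reductase, stood at 0.223 to 1.28 CPM in the other 9 libraries and at 36.2, 142.7 and 39.6 with cholic acid (difference -6.48 ± 1.00, adjusted p 0.00162). Cyp2b10, the classic CAR target, was called in neither experiment, at 28.3, 46.6 and 1.17 CPM with chow and 27.5, 344.1 and 107.5 with cholic acid. Cyp3a11 and Cyp2c55 rose on cholic acid, by 1.84 and 4.57 (adjusted p 0.0103 and 0.0039). Their hepatectomy estimates of 0.93 and 1.99 were not called (adjusted p 0.086 and 0.0811), nor were their differences (adjusted p 0.238 and 0.103). Leaving out 1 library called each hepatectomy rise in 2 of 6 fits and each difference in 1 of 12. The 20 drug metabolism genes raised on cholic acid became 11 without chow 1 or cholic acid 2, 12 without chow 2 and 13 without cholic acid 3. The 4 lowered there became 2 without chow 1 or 2 or cholic acid 1. After hepatectomy the 7 raised became 3 without sham 2 or 3 and 4 without hepatectomy 1. After hepatectomy the 15 lowered became 7 without sham 2 or 3. A rise of Gstm3 after hepatectomy was called without hepatectomy 2 (adjusted p 0.0342).

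Ces2a, Cyp2a5 and Ugt1a1 fell after hepatectomy and rose on cholic acid. Ces2a, a carboxylesterase, fell by 0.91 ± 0.14 and rose by 2.72 ± 0.29 (adjusted p 0.00208 and 0.00316). Cyp2a5, a coumarin hydroxylase, fell by 1.27 ± 0.13 and rose by 2.31 ± 0.48 (adjusted p 0.000274 and 0.0343), and Ugt1a1, which conjugates bilirubin, fell by 0.71 ± 0.12 and rose by 1.21 ± 0.22. The glutathione transferase genes Gsta1, Gsta2, Gsta4 and Gstm2, with Ugt2b35, rose in both. Gsta1 stood at 0.514, 0.466 and 0.333 CPM in sham, 5.45, 14.6 and 3.08 after hepatectomy, 6.76, 3.62 and 7.52 with chow and 102.1, 253.8 and 274.9 with cholic acid. Groups were separate in both experiments, and the rises of 4.12 ± 0.63 and 5.14 ± 0.47 did not differ by call (-1.03 ± 0.86, 95% interval -2.89 to 0.84). Of targets of Nrf2, the sensor of oxidants, 5 of 23 rose after hepatectomy, near the 16.4% raised over all genes, and 10 of 24 on cholic acid (6 with the replicate block). Nqo1, a quinone reductase, rose by 2.52 ± 0.25 on cholic acid against an uncalled 0.10 ± 0.20 after hepatectomy (difference -2.42 ± 0.32, adjusted p 0.000725). Gclc, of glutathione synthesis, rose in both, by 0.64 ± 0.20 and 1.68 ± 0.25. Genes of the Gsta, Gstm, Cyp2a, Ces2, Mup and Saa families have near-identical copies, among which the counting may have split reads. The rise of Cyp2a5 on cholic acid was not called without chow 1 or 2 or cholic acid 2 or 3 (adjusted p 0.087 to 0.13). The rise of Ugt1a1 on cholic acid was not called without chow 1 or 2 or cholic acid 2 or 3 (adjusted p 0.0601 to 0.0889). The rise of Gclc after hepatectomy was not called without sham 1, 2 or 3 or hepatectomy 2 or 3 (adjusted p 0.0521 to 0.153). The rise of Gclc on cholic acid was not called without chow 2 (adjusted p 0.0504). Nor was the rise of Ugt1a1 called with the replicate block in the diet experiment (adjusted p 0.0557). The 10 Nrf2 targets raised on cholic acid became 3 without chow 2, 4 without chow 1, 5 without cholic acid 2 and 6 without cholic acid 3. After hepatectomy the 5 raised Nrf2 targets became 2 without sham 2 or 3 and 3 without hepatectomy 2.

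Many male-biased targets of growth hormone fell in 1 or both experiments. Of 30 tested genes 15 fell and 1 rose after hepatectomy, and 18 of 30 fell and 2 rose on cholic acid, with medians of -0.50 and -1.87. The 2 that rose on cholic acid were Cux2 and Stat5b, which the list holds as regulators. In all 8 were lowered in both, and the difference was higher after hepatectomy at 13 of 31. Hsd3b5, a male-biased steroid reductase, stood at 241.5, 234.3 and 235.0 CPM in sham and 147.9, 208.8 and 154.5 after hepatectomy. It stood at 198.0, 132.4 and 157.2 CPM with chow and 3.29, 0.594 and 3.74 with cholic acid, and treated and control libraries did not overlap in either experiment. The falls of 0.48 ± 0.13 and 5.98 ± 0.58 differed by 5.51 ± 0.55 (adjusted p 0.000132). Ghr, the growth hormone receptor gene, fell by 0.77 ± 0.10 and 1.32 ± 0.21 with no difference called (adjusted p 0.126, 95% interval 0.07 to 1.06). The fall of Hsd3b5 after hepatectomy was not called without sham 1, 2 or 3 or hepatectomy 1 or 3 (adjusted p 0.0533 to 0.0782). The fall of Ghr on cholic acid was not called without cholic acid 3 (adjusted p 0.0526). The 18 male-biased targets lowered on cholic acid became 10 without chow 2 and 11 without cholic acid 3. The 2 raised there became 0 without chow 1 or 2 or cholic acid 1 or 2 and 1 without cholic acid 3.

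Cux2, a factor known to be female-biased in mouse liver and to repress male-biased genes, went in opposite directions in the 2 experiments. It stood at 4.08, 8.10 and 8.00 CPM in sham and 0.851, 0.434 and 0.324 after hepatectomy. It stood at 0.223, 0.137 and 1.61 CPM with chow and 43.2, 51.8 and 5.56 with cholic acid. Treated and control libraries were separate in both experiments. Cux2 fell by 3.65 ± 0.41 and rose by 5.68 ± 1.02, a difference of -9.32 ± 1.20 (adjusted p 0.000605). With the replicate block in the diet experiment the rise was not called (adjusted p 0.067). Elovl3, a male-biased fatty acid elongase, rose by 1.27 ± 0.28 after hepatectomy and fell by 3.77 ± 0.84 on cholic acid, the fall being uncalled with the block (adjusted p 0.0991). The rise of Cux2 on cholic acid was not called without chow 1 or 2 or cholic acid 1 or 2 (adjusted p 0.0576 to 0.0822). The rise of Elovl3 after hepatectomy was not called without sham 2 or 3 (adjusted p 0.0507 to 0.0544). The fall of Elovl3 on cholic acid was not called without chow 1 or 2 or cholic acid 1, 2 or 3 (adjusted p 0.0723 to 0.145).

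Further genes with large shared or opposite effects were of other kinds. Adgrv1, a very large adhesion receptor, was lowered in both, at 76.3, 71.8 and 73.8 CPM in sham, 7.01, 4.06 and 11.9 after hepatectomy, 3.12, 4.85 and 4.96 with chow and 0.253, 0.162 and 0.287 with cholic acid. It fell by 3.27 ± 0.33 and 4.15 ± 0.40, with no difference called (95% interval -0.41 to 2.19). Csrp3, a muscle LIM protein gene, and Nrep also fell in both, Csrp3 by 1.42 ± 0.30 and 2.72 ± 0.39 and Nrep by 1.40 ± 0.33 and 3.16 ± 0.42. Nnmt, which methylates nicotinamide, rose by 1.75 ± 0.45 after hepatectomy and fell by 1.47 ± 0.30 on cholic acid (adjusted p 0.0203 and 0.03). Lgals1, which encodes galectin 1, rose by 1.47 ± 0.16 and fell by 1.44 ± 0.31. Ppargc1a, a coactivator of gluconeogenic and mitochondrial genes, went the other way. It stood at 55.6, 68.7 and 63.1 CPM in sham, 32.0, 14.6 and 9.62 after hepatectomy, 7.50, 10.1 and 10.6 with chow and 20.1, 20.5 and 18.9 with cholic acid. Treated and control libraries did not overlap in either experiment, with a fall of 1.74 ± 0.38 and a rise of 1.08 ± 0.18 (difference -2.81 ± 0.47, adjusted p 0.00274). Rgs16, a regulator of G protein signalling, fell by 6.37 ± 0.34 after hepatectomy, from 117.1 to 202.3 CPM in sham to 1.22 to 2.67, against an uncalled 0.69 ± 0.73 on cholic acid. The fall of Nrep after hepatectomy was not called without sham 2 or 3 (adjusted p 0.0561 to 0.0617). The rise of Nnmt after hepatectomy was not called without sham 2 or hepatectomy 2 (adjusted p 0.0549 to 0.0626). The fall of Nnmt on cholic acid was not called without chow 2 or cholic acid 1 or 3 (adjusted p 0.0912 to 0.122). The fall of Lgals1 on cholic acid was not called without chow 2 or cholic acid 1, 2 or 3 (adjusted p 0.076 to 0.129). The rise of Ppargc1a on cholic acid was not called without chow 1 or 2 or cholic acid 1, 2 or 3 (adjusted p 0.052 to 0.0693).

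Fatty acid synthesis genes fell after hepatectomy. Of 22 genes 14 fell with a median of -0.98, and on cholic acid 0 of 22 were called by edgeR's test, with a median of -0.17. At an unadjusted p under 0.05, 3 of them were higher and 3 lower on cholic acid, and DESeq2's Wald test called 2 and 2. The difference was called lower at 5 of 22 (8 without chow replicate 3 or with the block in the diet experiment alone, and 6 with the block in both experiments). Scd1, the desaturase that makes monounsaturated fatty acids, stood at 21240, 13010 and 13380 CPM in sham and 4995, 2806 and 5131 after hepatectomy, without overlap. It stood at 3759, 6134 and 10990 CPM with chow and 16150, 6787 and 11150 with cholic acid, with overlap. Scd1 fell by 1.88 ± 0.28 (adjusted p 0.00177), and the difference was -2.59 ± 0.58 (adjusted p 0.0123). Acaca, which makes malonyl-CoA, fell by 0.95 ± 0.10, with a difference of -1.40 ± 0.18 (adjusted p 0.000515).

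Cholesterol synthesis genes gave a difference of the other sign. After hepatectomy 2 of 26 rose and 1 fell (median 0.30), and on cholic acid 3 fell (Ebp, Hsd17b7 and Tm7sf2, median -1.36). Both hepatectomy counts were under the shares over all genes (16.4% raised and 14.3% lowered), and 2.5% of all genes fell on cholic acid. The difference was called higher at 11 of 26. Sqle, the squalene epoxidase, stood at 169.2, 134.7 and 128.8 CPM in sham and 199.2, 188.6 and 134.3 after hepatectomy, with overlap. It stood at 26.2, 24.9 and 107.5 CPM with chow and 3.34, 1.89 and 12.1 with cholic acid, without overlap and with replicate 3 highest in both diet groups. The difference was 3.45 ± 0.88 (adjusted p 0.0228), and with the replicate block the cholic acid effect was called (-3.25, adjusted p 0.0037). With the replicate block 15 of 26 genes fell on cholic acid and 17 of 26 differences were called. Without chow replicate 3, 7 fell with a median of -0.69, and 9 differences were called. The Sqle difference was not called without sham 2 or 3 or cholic acid 1 (adjusted p 0.0564 to 0.0613). The 11 cholesterol synthesis differences became 5 without sham 2 or 3 and 6 without hepatectomy 2 or cholic acid 1 or 2. The 3 cholesterol synthesis genes lowered on cholic acid became 1 without cholic acid 2 or 3 and 7 without chow 3. The 2 raised after hepatectomy became 15 without hepatectomy 3 and 6 without sham 1. They became 1 without hepatectomy 1 and 0 without sham 2 or 3 or hepatectomy 2. With the replicate block in both experiments 9 rose after hepatectomy.

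Many glucose and amino acid genes fell after hepatectomy. The shares over all genes were 16.4% raised and 14.3% lowered there, and 2.27% raised and 2.5% lowered on cholic acid. Of 27 genes of gluconeogenesis, glycolysis and glycogen 15 fell and 2 rose there, against 2 and 1 on cholic acid, and the difference was called lower at 6 and higher at 2. Of these genes 5 fell on cholic acid without chow replicate 3, and 10 differences were lower. Pck1, the first committed enzyme of gluconeogenesis, stood at 2476, 3029 and 3317 CPM in sham and 1330, 1445 and 518.0 after hepatectomy, without overlap. It stood at 3212, 4273 and 4436 CPM with chow and 4624, 4076 and 3500 with cholic acid. The fall after hepatectomy was 1.42 ± 0.34 and the difference -1.46 ± 0.43 (adjusted p 0.0427). Of 33 genes of the urea cycle and amino acid breakdown 20 fell and 2 rose after hepatectomy, and 3 fell and 1 rose on cholic acid. The difference was called higher at 4 and lower at 2 (4 lower with the replicate block). Otc, a urea cycle enzyme, fell in both, by 0.59 ± 0.08 and 0.75 ± 0.16, with no difference called (95% interval -0.19 to 0.53). Fatty acid oxidation genes fell in both at 10 of 29 and 8 of 30, with 5 lowered in both. Fabp1, the liver fatty acid binding protein, fell further on cholic acid (0.58 ± 0.14 and 1.74 ± 0.25, difference 1.17 ± 0.30, adjusted p 0.0225). The fall of Pck1 after hepatectomy was not called without sham 2 or 3 (adjusted p 0.0517 to 0.0606). The Pck1 difference was not called without sham 1, 2 or 3 or chow 1 or 2 or cholic acid 1, 2 or 3 (adjusted p 0.0535 to 0.0978). The fall of Otc on cholic acid was not called without chow 1 or 2 or cholic acid 1, 2 or 3 (adjusted p 0.0817 to 0.154). The fall of Fabp1 after hepatectomy was not called without sham 3 (adjusted p 0.0598). The Fabp1 difference was not called without sham 1 or 2 or hepatectomy 1 or 2 (adjusted p 0.05 to 0.0636). In a fit with the replicate block in the diet experiment neither the Pck1 difference (adjusted p 0.055) nor the fall of Otc on cholic acid (adjusted p 0.086) was called. The 10 fatty acid oxidation genes lowered after hepatectomy became 4 without sham 3 and 5 without sham 2. The 8 lowered on cholic acid became 2 without cholic acid 2 or 3, 3 without chow 2 or cholic acid 1 and 4 without chow 1. The 6 lower differences of glucose genes became 2 without sham 2 or 3, 3 without cholic acid 3 and 10 without chow 3. The 3 urea cycle and amino acid genes lowered on cholic acid became 1 without chow 2 or cholic acid 3. The 4 higher differences of that list became 2 without sham 1 or 2 or hepatectomy 3 or cholic acid 1.

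Acute phase genes rose after hepatectomy. Of 29 genes 19 rose, with a median of 0.76, and on cholic acid 1 rose (Il1r1, and 4 without chow replicate 3) and 1 fell (Saa4). The 1 raised on cholic acid became 0 without chow 1 or 2 or cholic acid 2 or 3. The difference was called higher at 14. Saa2, a serum amyloid A gene, stood at 18.1, 31.2 and 25.4 CPM in sham and 2025, 1507 and 2454 after hepatectomy. It stood at 11.4, 21.6 and 3804 CPM with chow and 16.1, 12.2 and 29.0 with cholic acid. Hepatectomy libraries lay far above sham, and among the diet libraries only chow replicate 3 was high. The difference of 12.39 ± 2.37 (adjusted p 0.00562) was 6.11 without that library (adjusted p 7.56e-05). Lcn2, an iron-scavenging acute phase protein, gave 7.99 ± 1.65 with all libraries and 3.94 without it (adjusted p 0.000446). Orm2, an acid glycoprotein of plasma, rose by 5.01 ± 0.33 after hepatectomy, and its difference was 5.61 ± 1.01 with all libraries and 3.96 without chow replicate 3. Without that library 15 differences were higher and 1 lower, of 29. Secreted plasma protein genes fell at 16 and rose at 5 of 40 after hepatectomy, and fell at 9 of 40 on cholic acid (5 with the replicate block). The 5 raised were near the 16.4% raised over all genes, where 14.3% fell after hepatectomy and 2.5% on cholic acid. C9, a terminal complement component, rose by 0.47 ± 0.12 after hepatectomy and fell by 1.54 ± 0.21 on cholic acid. The rise of C9 after hepatectomy was not called without sham 2 or 3 (adjusted p 0.083 to 0.0894). The 9 plasma protein genes lowered on cholic acid became 2 without chow 2 or cholic acid 1, 3 without cholic acid 2 or 3 and 5 without chow 1. After hepatectomy the 16 lowered plasma protein genes became 10 without sham 2 or 3. After hepatectomy the 5 raised became 2 without sham 2 and 3 without sham 3.

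Markers of other liver cells changed at some genes. Over all genes 16.4% rose and 14.3% fell after hepatectomy, and 2.27% rose and 2.5% fell on cholic acid. Of 30 stellate cell and matrix genes 12 rose and 2 fell after hepatectomy, and 1 of 28 rose on cholic acid (Reln). The difference of effects was called higher at 0 of these 30 genes and lower at 2. A larger rise after hepatectomy is thus not shown for any of them. Col1a1, the main fibrillar collagen, rose by 0.95 ± 0.19 after hepatectomy against an uncalled 0.66 ± 0.50, and the difference was not called (95% interval -0.93 to 1.54). Of 21 endothelial markers 1 rose and 4 fell after hepatectomy, the latter near the 14.3% lowered over all genes. Lyve1, a sinusoidal endothelial receptor, fell by 1.09 ± 0.23 after hepatectomy (difference -1.75 ± 0.49, adjusted p 0.0335). Macrophage and leukocyte markers rose at 2 of 20 after hepatectomy, under the share over all genes, and at 1 of 19 on cholic acid. The latter was Csf1r, the receptor of the macrophage growth factor (1.36 ± 0.24, adjusted p 0.0197). Without chow replicate 3, where more of all genes were called on cholic acid too, 9 of 21 of these markers rose on cholic acid. In that setting the difference was lower at 6 of these markers against 1 with all libraries. Their summed level was 191.8 to 327.3 CPM in sham, 258.5 to 367.4 after hepatectomy, 139.1 to 374.0 in chow livers and 311.5 to 504.2 in cholic acid livers. Of bile duct markers 1 of 16 rose after hepatectomy (Krt19, 0.88 ± 0.25), again under the share over all genes, and 1 of 14 on cholic acid. The latter was Prom1, at 0.149, 0.615 and 0.949 CPM with chow and 16.7, 21.6 and 6.28 with cholic acid (4.68 ± 0.63, adjusted p 0.00903). The part of these other cells in the mitosis and matrix results was not tested. The Lyve1 difference was not called without sham 1, 2 or 3 or hepatectomy 2 or 3 or chow 1 or 2 or cholic acid 3 (adjusted p 0.0521 to 0.0877). The rise of Csf1r on cholic acid was not called without chow 1 or 2 (adjusted p 0.0664 to 0.0862). The rise of Krt19 after hepatectomy was not called without sham 2 or 3 or hepatectomy 2 (adjusted p 0.098 to 0.108). The 4 endothelial markers lowered after hepatectomy became 2 without sham 2 and 9 without sham 3.

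**Figure D4:**
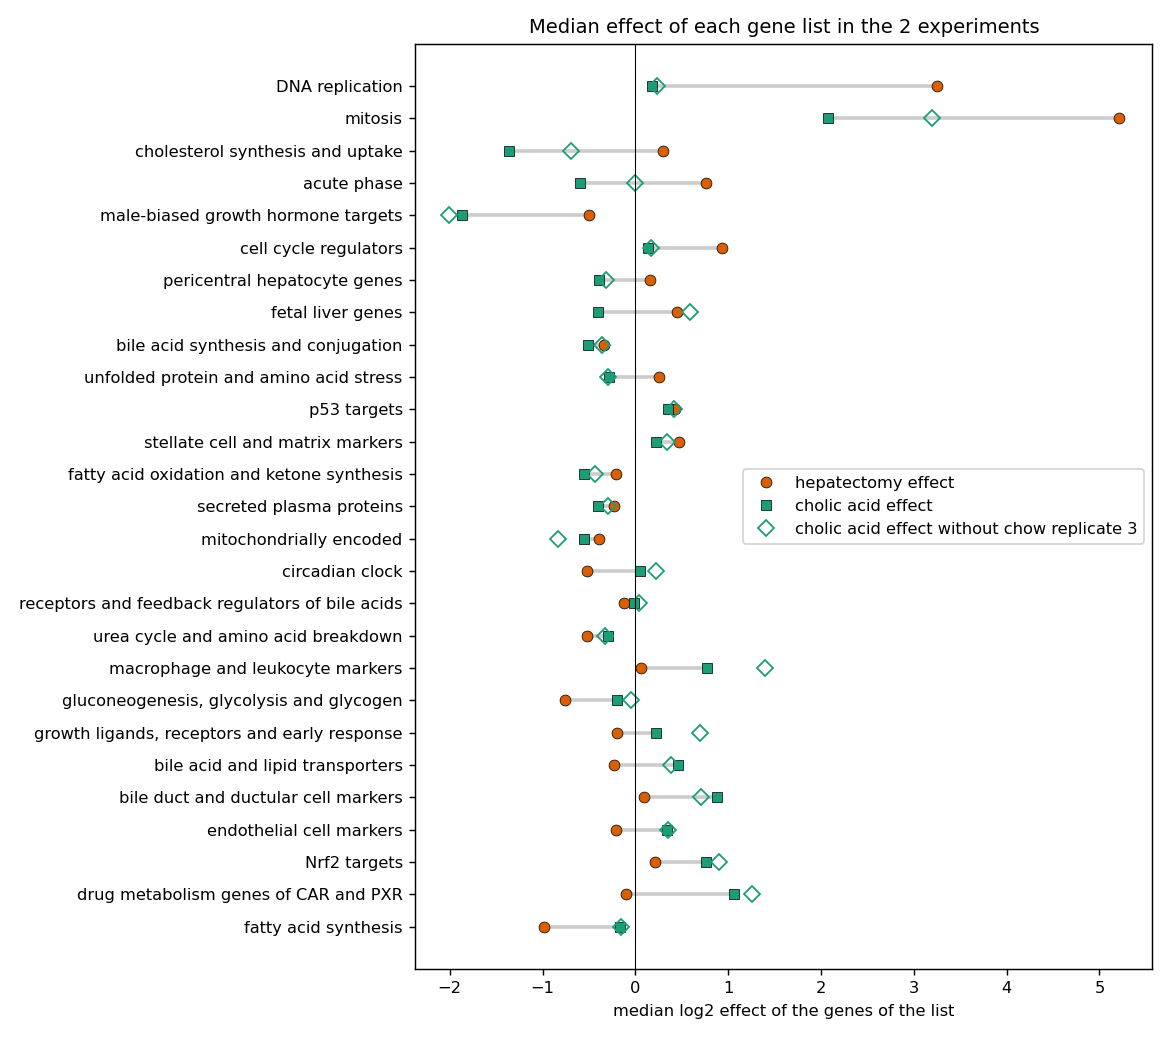
Median log2 effect of each of 27 gene lists after hepatectomy (circles) and on cholic acid (squares, with open diamonds without chow replicate 3), ordered by the median difference of effects. DNA replication has medians of 3.25 and 0.18, mitosis is high in both (5.21 and 2.07), and fatty acid synthesis, at the bottom, has -0.98 and -0.17.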

How the data were processed

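RNA from whole mouse liver was sequenced from a TruSeq Stranded mRNA library, per the labels' protocols. The authors deposited raw read counts per gene, made with bcl2fastq 2.17.1.14, Trimmomatic, STAR 2.4.2a, Picard 1.119 and HTSeq on GRCm38 (mm10), per the submitters' processing notes. The annotation release and strand setting are not given in the sources used here, so reads of overlapping and antisense genes may not be told apart. The table holds 47643 genes and 5 summary lines, which stayed out of library sizes and tests. Here TMM scaling, filterByExpr (10 counts, total of 15) and the quasi-likelihood test of edgeR 4.0.16 in R 4.3.3 were used, with Benjamini-Hochberg adjustment over all genes of a fit. Each effect was fitted on its 6 libraries, and the difference on all 12 with 1 coefficient a group. A count of 3 equals 0.0845 to 0.215 CPM, depending on the library. Intervals are 95%.

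Genes named are the 6 largest differences in each direction, the 6 largest raised or lowered in both, up to 6 opposite in each direction (average log2 CPM of at least 1, libraries separate), a fixed panel, and the extreme called member of each of 27 lists. Other list members were named as examples after their values were seen. The members and lists were chosen with earlier results of these data known, and 802 of 805 list symbols matched. Lists are described with no test.

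Deviations of same-numbered samples correlated weakly in the diet experiment (0.133, 0.155 and 0.103), against -0.106 to -0.0511 for pairs of unlike number. In the hepatectomy experiment same-numbered pairs gave -0.0754, 0.0723 and -0.00136, and pairs of unlike number gave -0.13 to 0.106. A correlation of 0.106 thus also arose between samples of unlike number. These values are a check on the data with no pairing in the labels. The alternatives were a replicate block, DESeq2 1.42.0 size factors and test, other filters, all 4 groups or all 26 libraries in 1 fit, limma 3.58.1 with weights per group, thinning to the smallest library, a minimum log2 value and leaving out each library. The edgeR script was tested on simulated data.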

Additional observations from a re-analysis of the deposited data

Results flagged for a closer look

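The share of reads that the deposited counts leave ambiguous between genes, which no comparison above uses, was above its control level in both treatments. It averaged 3.54% after hepatectomy (3.37% to 3.73%) against 2.84% in sham (2.8% to 2.9%), and 2.57% on cholic acid (2.44% to 2.85%) against 2.02% on chow (1.83% to 2.38%). Groups did not overlap in either experiment, with 3 libraries in each, and the difference was not tested.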

How the results depend on the processing

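Counts of called genes are given for the hepatectomy effect, the cholic acid effect and the difference of effects. Leaving out 1 library at a time gave 2554 to 4217 calls after hepatectomy (lowest without sham replicate 2, and 2575 without sham replicate 3) and 1089 to 2495 for the difference of effects. It gave 189 to 1345 on cholic acid, where chow replicate 3 alone raised the count and each of the other 5 lowered it by over 1.5 times. The ranges were 20 to 255 genes raised in both, 50 to 221 lowered in both, 15 to 124 opposite, 585 to 1260 particular to hepatectomy and 78 to 493 particular to cholic acid. With DESeq2's Wald test 1445 genes changed on cholic acid, 240 were raised and 306 lowered in both, 147 were opposite and 510 particular to cholic acid. Without a filter these were 955 on cholic acid, 185 raised in both and 98 opposite. All 4 groups in 1 fit, which share 1 estimate of the spread, gave 2440 after hepatectomy, 2244 on cholic acid, 274 raised and 213 lowered in both, 126 opposite and 623 particular to cholic acid. A minimum log2 value of 1 left 1389 after hepatectomy, 29 lowered in both, 13 opposite and 486 particular to hepatectomy. All 26 libraries in 1 fit gave 2749 calls for the difference of effects. With the replicate block in both experiments 3664, 480 and 1497 were called after hepatectomy, on cholic acid and for the difference. With the block in the diet experiment alone, added after seeing the data, 480 and 2229 were called on cholic acid and for the difference. Across the named genes 5468 alternative values kept a call with its direction or stayed uncalled, 406 lost the call, 176 gained it and 1 reversed. Values uncalled in both fits were not counted as reversed when their sign changed. The uncalled cholic acid effect of Ppp1r3g, for example, ranged from -5.62 to 2.69. That one was the cholic acid effect of Lcn2, which was uncalled at -2.91 and became 1.12 without chow replicate 3, with a range of -3.47 to 1.12 over libraries left out. The causes of these changes were not tested. Depth limits low genes in the diet experiment most, since its libraries are the smaller ones.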

Other observations

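Some genes of protein folding and amino acid stress rose after hepatectomy. For the counts in this paragraph, the shares over all genes after hepatectomy were 16.4% raised and 14.3% lowered. On cholic acid they were 2.27% and 2.5%, and the difference was higher at 8.01% and lower at 5.01%. Of 25 tested genes 10 rose and 3 fell after hepatectomy, 1 of 24 rose on cholic acid (Sesn2), and the difference was called higher at 7 of 25 (Asns, Calr, Creld2, Manf, Pdia4, Pdia6 and Sdf2l1). As given above, the rise of Sesn2 was lost without any of 5 diet libraries in turn. The difference for Asns, which makes asparagine, was not called without sham 1, 2 or 3, hepatectomy 1 or 2, chow 3 or cholic acid 2 or 3 (adjusted p 0.0609 to 0.135). The 10 raised after hepatectomy became 5 without sham 2 and 6 without sham 3, and the 3 lowered became 1 without sham 2. Genes of hepatocytes around the central vein gave a difference called higher at 7 of 19 and lower at 1, with 6 raised and 4 lowered after hepatectomy and 4 of 18 lowered on cholic acid. Of these central vein genes, the 4 lowered after hepatectomy became 2 without sham 2 or 3, and the 4 lowered on cholic acid became 1 without chow 2 or cholic acid 1 or 3.

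Ldah, a lipid droplet hydrolase gene, was nearly without reads in some diet libraries and not in others. Its counts were 729, 788 and 0 in the chow libraries and 4, 1 and 574 in the cholic acid libraries, against 1532 to 1826 in the 6 hepatectomy and sham libraries. Over all 26 libraries 4 held 0 to 6 reads and the other 22 held 343 to 1826.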
